A study of Mus musculus with 11 samples.

Results

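The genes described here form a list named for whey acidic protein (WAP) domain and acute-phase secreted proteins. The 7 listed were the WAP domain genes Wfdc17, Wfdc18 and Slpi, the serpins Serpina3n and Serpina3g, serum amyloid A3 (Saa3) and lipocalin 2 (Lcn2). They were chosen by their levels in these same arrays, several of them being among the largest rises in cultured over freshly sorted newborn microglia, so their differences between culture and sorted cells are given as a description without a test. A probe was found for 6 of the 7 through its RefSeq transcript accession, and those 6 were among the 19555 mouse genes tested. No probe was matched to Serpina3g, so its RNA level was not analysed here and only its promoter is described.

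The WAP domain is a compact fold held together by disulfide bonds, and proteins that carry it often block serine proteases. Serpins trap their target protease in an irreversible complex. Acute-phase proteins are made in large amounts by the liver, and by other cells locally, when interleukin-6 (IL-6), IL-1 or related cytokines act through STAT3, C/EBP and NF-kB factors. In the brain, Wfdc17 (also called AMWAP) is known from activated microglia, while Lcn2 and Serpina3n are widely used marks of reactive astrocytes.

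RNA of mouse C57BL/6N brain cells was labelled with Cy3 and hybridised to 11 single-colour Agilent arrays. Microglia sorted from adult females by fluorescence-activated cell sorting for intermediate CD45 and high CX3CR1 gave 2 arrays (A_FACS), and microglia sorted in the same way from newborn pups of both sexes gave 3 (NB_FACS). Newborn microglia shaken off mixed glial flasks, which had been fed with L-929 fibroblast conditioned medium, were kept for a day in serum-containing medium alone (NB_Control, 3 arrays) or in that medium with 3 human factors, each added at 100 ng/mL (NB_Stim, 3 arrays): CX3CL1, IL-34 and TGF-β1. Isolation by sorting or shaking and the time in flasks differ together between NB_FACS and both cultures, and age and sex differ together between A_FACS and NB_FACS, so their parts cannot be told apart. All groups are of this strain. The study defines its replicates as independent biological samples.

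On the arrays 66.8% to 80.4% of probes lay well above background and no spot was saturated. Replicate 3 of each newborn group was hybridised on a second slide with a brighter signal than the first. Of the 11 probed microglia markers 10 or 11 were well above background in each array group. In NB_Control most probed markers of astrocytes, fibroblasts and neutrophils were so too, so this alone does not set the label. Against NB_FACS, 7 of 11 microglia markers were called lower in NB_Control (median -1.46 log2 units) and 3 in NB_Stim (median -0.2), and none higher. Of all genes 29.7% and 31.1% were called in either direction. The summed signal of the microglia markers was 191000 to 209000 in NB_FACS, 77200 to 91100 in NB_Control and 176000 to 184000 in NB_Stim. Among the other cell types, the fibroblast marker sum was 2380 to 2540 in NB_FACS against 44000 to 52400 in NB_Control and 26000 to 55900 in NB_Stim. The sum of border and monocyte-derived macrophage markers was 11100 to 13900 in NB_FACS, 44800 to 88000 in NB_Control and 19600 to 32900 in NB_Stim. Single markers of this set moved both ways. Of 9 tested against NB_FACS, 4 were called higher and 3 lower in NB_Control (median 0.62 log2 units). In NB_Stim 2 were higher and 5 lower (median -1.38), so the higher sum there does not hold for most of the set. Astrocyte markers summed to 2500 to 2800, 3660 to 3800 and 3150 to 4280 in the same order, and 3 of 10 were called higher in NB_Control than in NB_FACS. Epithelial markers, which include choroid plexus genes, summed to 17300 to 56200 in NB_FACS and at most 6220 in the cultures, and endothelial markers to 4860 to 6630 and at most 2440. A neutrophil marker sum of 7510 set NB_FACS replicate 3 apart from replicates 1 and 2, at 1150 and 1020.

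**Figure D1:**
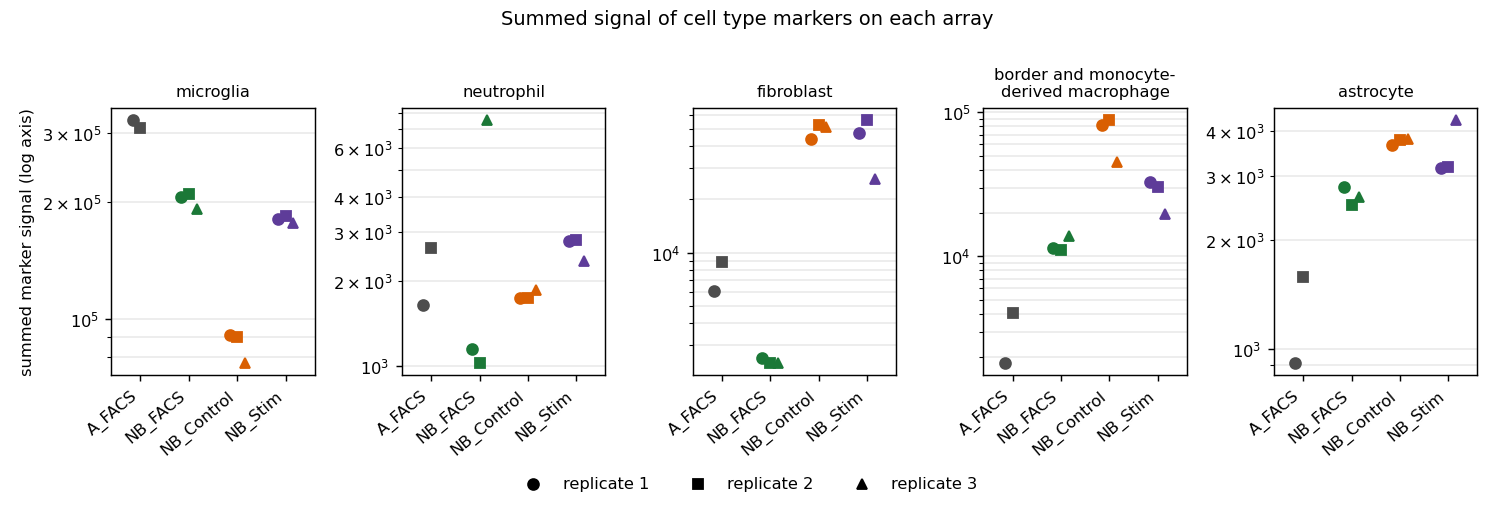
Summed linear signal of marker genes of 5 cell types on each array, on log axes that differ between panels, with colour for the group and symbol shape for the replicate. Fibroblast markers lie at 2380 to 2540 in sorted newborn cells and at 26000 or more in both cultures, and the neutrophil sum of NB_FACS replicate 3 (7510) stands above all other arrays.

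Each measured gene was read by a single probe, and the probe sequences set what the signals can tell apart. The probes of Wfdc17 (NM_001081957.1) and Wfdc18 (NM_007969.4) are shown first because they resemble each other. Over 43 aligned bases they were identical at 39 (90.7%), with no identical run over 12 bases, and the 4 bases at which they differ are in capitals.
Wfdc17: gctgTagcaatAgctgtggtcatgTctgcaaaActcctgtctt
Wfdc18: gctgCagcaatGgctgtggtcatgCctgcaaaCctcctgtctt
Among all 60037 probes of the array, these 2 were the only ones with a partner of the same kind, defined as a shared run of at least 12 bases and over 80% identity on at least 30 aligned bases with a member's probe. RNA of either gene may bind both probes, so the values of Wfdc17 and Wfdc18 cannot be taken as independent. The first 30 bases of the other 4 probes, which are 47 to 52 bases long, show that each reads a sequence of its own, and no pair among the other members' probes passed 50% identity.
Slpi: gggttactgttttaccactaacatctcctt
Serpina3n: aacaaagtagcctttcttttagttcccagc
Saa3: cctgctggcctgcctaaaagatactgagtt
Lcn2: ccacctgtcttaacaccaccaatggcgtcc

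Wfdc17 gave one of the widest spans of signal among the genes described here. Its quantile-normalised log2 signal was 6.77, 7.61 and 7.73 on the 3 NB_FACS arrays. In NB_Control it was 15.25, 15.50 and 15.38, and in NB_Stim 13.72, 13.47 and 14.12. All cultured arrays lay above all sorted newborn arrays, and all stimulated arrays lay below all control cultures. The NB_Control mean was 8.01 log2 units (257-fold) above NB_FACS, and the NB_Stim mean 6.40 (84.6-fold) above it. In A_FACS the 2 arrays read 6.57 and 9.88, further apart than any replicates of the newborn groups.

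Wfdc18, first known as an extracellular proteinase inhibitor of the mammary gland, followed the same course at a lower signal. The NB_FACS arrays gave 4.80, 5.79 and 5.69, the NB_Control arrays 12.91, 13.20 and 13.45, and the NB_Stim arrays 11.61, 11.27 and 12. Its groups were ordered as those of Wfdc17 were, and again no cultured array overlapped a sorted newborn one. The differences from NB_FACS were 7.76 log2 units (217-fold) for NB_Control and 6.20 (73.8-fold) for NB_Stim. The adult arrays gave 4.33 and 7.74, with the same replicate low and the same replicate high as for Wfdc17. After each gene's mean was subtracted, the 2 profiles differed by a root mean square of only 0.15 log2 units over the 11 arrays, against 0.95 for the next closest pair, Serpina3n and Saa3. Given the likeness of the probes, the part of cross-hybridisation in this match was not tested.

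The 2 genes lie side by side on chromosome 11, with start sites 4948 bases apart on the same strand. Their promoters are shown because the genes moved together and are neighbours. They are RefSeq windows from 250 bases before to 50 bases after the start (GRCm38.p6), and capitals mark matches to the C/EBP motif TTNNGNAA on either strand.
Wfdc17, chr11:83703806-83704105, plus strand: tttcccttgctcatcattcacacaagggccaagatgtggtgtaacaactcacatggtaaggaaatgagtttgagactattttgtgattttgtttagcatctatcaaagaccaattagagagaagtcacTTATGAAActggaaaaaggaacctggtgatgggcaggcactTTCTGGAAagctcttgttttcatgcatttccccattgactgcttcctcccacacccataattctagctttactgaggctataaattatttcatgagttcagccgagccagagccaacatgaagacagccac
Wfdc18, chr11:83708754-83709053, plus strand: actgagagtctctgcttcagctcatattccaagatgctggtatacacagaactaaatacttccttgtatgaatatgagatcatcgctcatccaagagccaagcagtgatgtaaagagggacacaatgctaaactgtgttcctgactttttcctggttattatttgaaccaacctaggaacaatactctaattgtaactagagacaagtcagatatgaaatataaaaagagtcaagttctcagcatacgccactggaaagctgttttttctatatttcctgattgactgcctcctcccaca
Bases -240 to -29 of the Wfdc17 window aligned with bases -171 to 50 of the Wfdc18 window at 65.5% identity, so the related stretches are offset with respect to the annotated starts. The Wfdc17 window held 2 C/EBP matches and the Wfdc18 window none, and neither held a match to the NF-kB motif, to STAT (TTCNNNGAA) or to AP-1 (TGANTCA). Of all 32851 windows, 40.7% held a C/EBP match, 4.5% NF-kB, 8.3% STAT and 7.8% AP-1.

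Slpi, the secretory leukocyte protease inhibitor that blocks neutrophil elastase and cathepsin G, took another course from the other WAP genes. It gave 7.02, 7.81 and 8.43 in NB_FACS, 6.19, 6.02 and 6.85 in NB_Control, and 6.88, 6.61 and 6.56 in NB_Stim. Every sorted newborn array was above every cultured array, by 1.40 log2 units on average over NB_Control and 1.07 over NB_Stim, and the cultures overlapped each other. It was the only measured member with a lower level in culture than in sorted newborn cells. On both adult arrays its probe, at 1.69 and 3.16, was not well above background.

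Serpina3n, the mouse gene most often compared with human alpha-1-antichymotrypsin, was near the lower end of the signal range in all sorted cells. It read 1.88 and 1.87 on the adult arrays, not well above background, and 4.51, 5.14 and 4.5 in NB_FACS. The NB_Control arrays gave 12.23, 12.52 and 9.28, and the NB_Stim arrays 12.75, 12.64 and 13.81. None of the 4 groups overlapped another, and their order from low to high was A_FACS, NB_FACS, NB_Control and NB_Stim. The mean difference from NB_FACS was 6.63 log2 units (98.8-fold) in NB_Control and 8.35 (327-fold) in NB_Stim, the widest difference among the members in this processing. With background correction by normexp it was 6.57, below the 7.51 of Wfdc17 in NB_Control.

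Saa3 encodes a serum amyloid A made outside the liver by macrophages and adipose tissue. Its signal was 7.36 and 7.47 in A_FACS, 8.41, 8.60 and 10.03 in NB_FACS, 16.19, 16.47 and 14.17 in NB_Control, and 16.54, 16.21 and 16.37 in NB_Stim. The cultures overlapped each other and were clear of both sorted groups. NB_Control was 6.60 log2 units (97-fold) and NB_Stim 7.36 (164-fold) above NB_FACS. In signal as deposited, before normalisation, Saa3 went from 207 to 2050 in NB_FACS to 33400 to 91300 in NB_Control.

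Lcn2, which binds the iron carriers of bacteria and keeps iron from them, differed less. It gave 7.07 and 7.29 in A_FACS, 7.39, 7.39 and 8.84 in NB_FACS, 11.03, 11.24 and 9.96 in NB_Control, and 11.08, 11.18 and 11.30 in NB_Stim. Again no cultured array overlapped a sorted one, while both cultures overlapped. The differences from NB_FACS were 2.87 log2 units (7.32-fold) for NB_Control and 3.31 (9.94-fold) for NB_Stim.

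**Figure D2:**
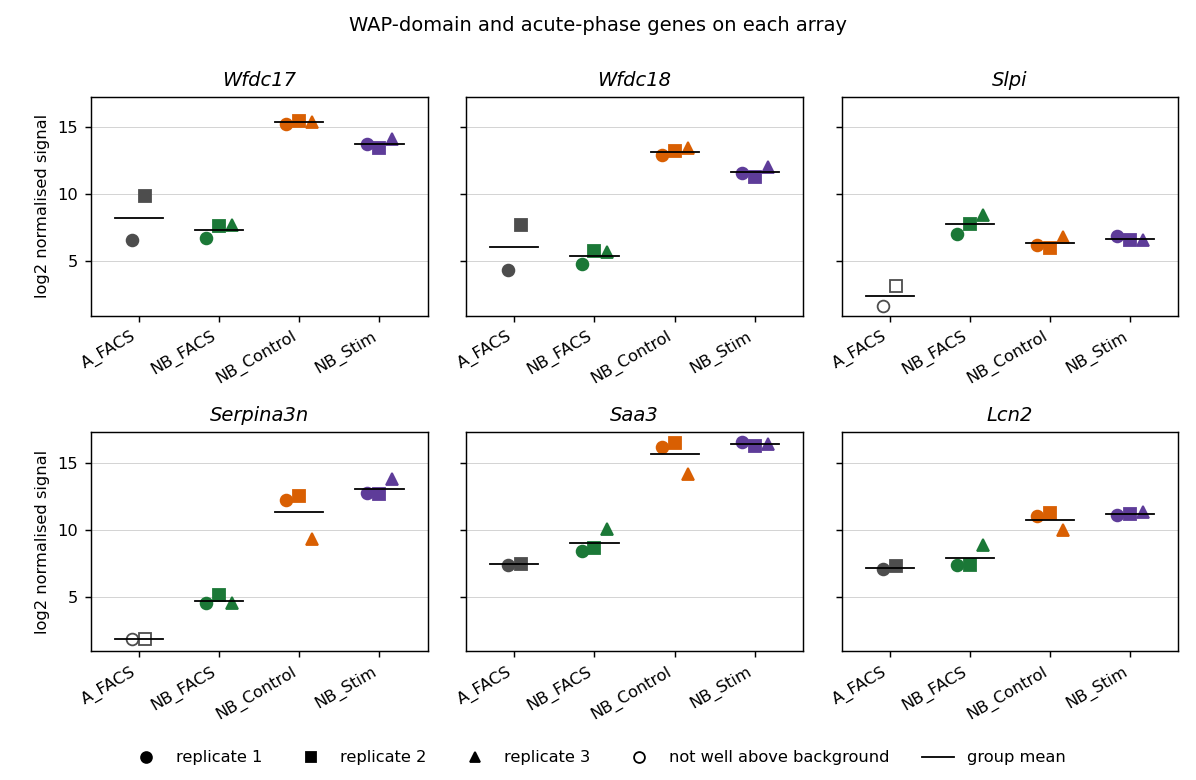
Quantile-normalised log2 signal of the 6 measured genes on each array, with symbol shape for the replicate, open symbols for probes not well above background and a line at each group mean. Cultured arrays lie above sorted newborn arrays for all genes but Slpi, NB_Control replicate 3 is the low array for Serpina3n, Saa3 and Lcn2, and Slpi and Serpina3n are at background in adult cells.

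In the comparison of NB_Control with NB_FACS 5 of the 6 members were called higher and 1 lower, where 29.7% of all genes tested were called in either direction. In NB_Stim against NB_FACS 5 were called higher and none lower (Slpi did not pass), beside 31.1% of all genes. These contrasts chose the members, so nothing is read from the counts. The median of all genes differed from 0 by 0.09 and 0.11 log2 units in the 2 contrasts. In such bulk RNA, more cells of a type that makes a transcript and more of it per cell cannot be told apart.

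Promoters of Serpina3n and Saa3 are shown because these genes had the closest profiles after the Wfdc17 and Wfdc18 pair. Capitals mark the same C/EBP motif.
Serpina3n, chr12:104406458-104406757, plus strand: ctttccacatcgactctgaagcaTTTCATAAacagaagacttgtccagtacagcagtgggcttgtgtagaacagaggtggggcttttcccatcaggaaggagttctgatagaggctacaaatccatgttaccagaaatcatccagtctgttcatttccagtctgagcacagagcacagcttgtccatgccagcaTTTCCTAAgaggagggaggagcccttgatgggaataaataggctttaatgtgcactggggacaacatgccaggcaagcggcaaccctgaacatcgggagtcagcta
Saa3, chr7:46715627-46715926, minus strand: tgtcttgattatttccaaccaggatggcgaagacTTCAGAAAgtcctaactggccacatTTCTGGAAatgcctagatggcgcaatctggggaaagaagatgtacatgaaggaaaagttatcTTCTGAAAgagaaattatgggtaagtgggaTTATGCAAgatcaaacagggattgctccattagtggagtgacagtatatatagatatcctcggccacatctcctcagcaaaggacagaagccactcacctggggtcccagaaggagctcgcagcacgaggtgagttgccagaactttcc
The Saa3 window held 4 C/EBP matches, the most among the 7 genes, Serpina3n held 2, Slpi 3 and Lcn2 1. None of the 6 measured genes had a match to the other 3 motifs in its window, which says only that those letters are absent there. The window of Serpina3g, which was not measured, held 3 C/EBP matches, 1 NF-kB match, 1 STAT match and no AP-1 match. A like pair of windows was Serpina3n and Serpina3g, 170.6 kb apart on chromosome 12, whose best local alignment was 66.8% identical.

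The effect of the cytokines on these genes was examined by comparing NB_Stim with NB_Control, which shares its arrays with the contrasts that chose the members. None of the 6 genes passed an adjusted p of 0.05 in limma, where 3.41% of all genes did and 2969 genes had an unadjusted p below 0.05. Wfdc17 was 1.61 log2 units lower with cytokines (SE 0.66, 95% interval -3.09 to -0.12, adjusted p = 0.286), or 3.04-fold, and Wfdc18 was 1.55 lower (SE 0.69, interval -3.10 to 0, adjusted p = 0.327). All 3 stimulated arrays lay below all 3 controls for both, and on the slides taken singly Wfdc17 differed by -1.78 and -1.25 and Wfdc18 by -1.61 and -1.44.

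The call for this pair rested on which arrays set the spread. When both adult arrays were left out, an alternative added after the values had been seen, the same difference reached an adjusted p of 0.0154 for Wfdc17 and 0.0275 for Wfdc18, and 2 members were called. Leaving out either adult array alone gave the same p-values. The SD of the 2 adult arrays was 2.3 log2 units for Wfdc17, against 0.13 in NB_Control and 0.33 in NB_Stim. Over all alternatives with Benjamini-Hochberg adjustment, the adjusted p of Wfdc17 ran from 0.0154 to 1 and it was called in 5 of 23, and that of Wfdc18 from 0.0268 to 1 with calls in 6 of 23. A fit of only these groups with the replicate number as a block for paired samples was also added after the values had been seen. Its adjusted p was 0.0312 for Wfdc17 and 0.0268 for Wfdc18.

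Serpina3n was higher with cytokines by 1.73 log2 units (SE 0.73, interval 0.10 to 3.35, adjusted p = 0.294). The groups did not overlap, but the replicates were far from alike, with differences of 0.52, 0.13 and 4.53 for replicates 1, 2 and 3. Without NB_Control replicate 3 the mean difference was 0.70. Saa3 differed by 0.76 (SE 0.58, interval -0.54 to 2.07, adjusted p = 0.64), of which replicates 1 and 2 gave 0.34 and -0.26 and replicate 3 gave 2.20. For Lcn2 the difference was 0.44 (SE 0.42, interval -0.49 to 1.38, adjusted p = 0.735), with 0.05, -0.07 and 1.34 in the 3 replicates. On the first slide the means of Saa3 and Lcn2 thus stood 0.04 and -0.01 apart, and the whole of the mean difference came from the second slide. Slpi differed by 0.33 (SE 0.43, interval -0.63 to 1.29, adjusted p = 0.831).

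**Figure D3:**
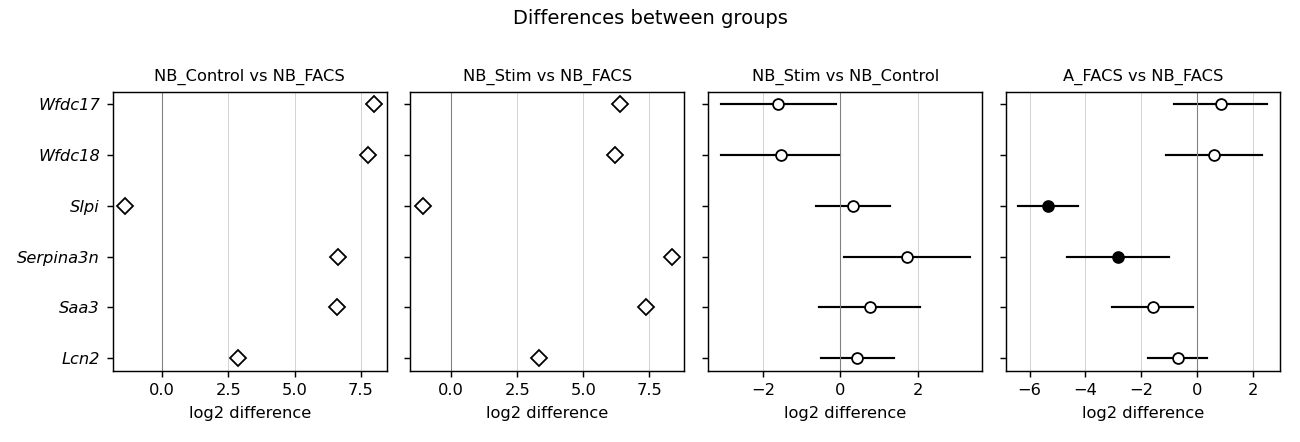
Log2 differences between group means in 4 comparisons. Diamonds are descriptions without a test, because those contrasts chose the genes, and circles with 95% intervals are limma estimates, filled where the adjusted p passed 0.05, which only Slpi and Serpina3n did, in A_FACS against NB_FACS. The horizontal axes differ between panels.

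Replicate 3 of the control culture differed from replicates 1 and 2 in several acute-phase transcripts. Against their mean, Serpina3n differed by -3.09 log2 units, Saa3 by -2.17 and Lcn2 by -1.18. Hp (haptoglobin, which binds free haemoglobin) differed by -3.67, Lrg1 (leucine-rich alpha-2-glycoprotein) by -3.78 and Serpina3b by -2.31 in the same array, while others were higher there, among them Orm2 by 1.57, Il1rn by 1.48 and Cfb by 1.22. These genes were named after their values had been seen. Of all genes tested, 3.25% were 1 log2 unit or more below the other replicates in that array and 3.83% as far above. Wfdc17 (0) and Wfdc18 (0.39) did not share the shift. The same array had the lowest sum of border and monocyte-derived macrophage markers among the controls (44800 against 81700 and 88000). In that set Pf4 differed by -1.89, Ms4a7 by -0.06, Lyve1 by 0.07, Mrc1 by 0.12 and F13a1 by 0.18. Plac8 differed by 0.63, Ly6c2 by 0.81, Clec12a by 1.07 and Cd163 by 2.69, so the lower sum does not hold for most of the set. The microglia marker sum was also lowest there (77200 against 91100 and 90000). The array lies on the second slide. The part of any of these in the acute-phase values was not tested.

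In sorted newborn cells, replicate 3 stood apart in the other direction. It exceeded the mean of replicates 1 and 2 by 1.52 log2 units for Saa3, 1.45 for Lcn2 and 1.01 for Slpi, and by 2.99 for Hp and 3.22 for Lrg1 (well above background there alone), but not for Serpina3n (-0.32). Of the neutrophil markers, S100a8 (5.87), Ltf (4.38) and Camp (3.53) were the most raised in the same array. Retnlg (1.96), Ngp (1.67), Mmp8 (1.43), Mpo (0.95), Ctsg (0.94), Elane (0.92) and Cebpe (0.67) were raised less. Prtn3 (-0.03), Csf3r (-0.15) and Cxcr2 (-0.22) were not raised. Of all genes tested, 4.91% were higher there by 1 log2 unit or more. Neutrophils are known to carry Slpi, Lcn2, Hp and Lrg1 protein or mRNA. The part of neutrophil RNA in these values was not tested. Without that array the NB_Control difference from NB_FACS was 3.35 for Lcn2 and -1.06 for Slpi. In the cultures the neutrophil sum was 1740 to 2800, above replicates 1 and 2 of NB_FACS. Of the 14 probed neutrophil markers, 12 were well above background on all NB_Control arrays and 10 on all NB_Stim arrays, while S100a9 and Cebpe were so on none. Mean S100a8 was 8.90 in NB_Control and 10.42 in NB_Stim, and of 13 neutrophil markers tested none was called higher and 1 lower in each culture than in NB_FACS.

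**Figure D4:**
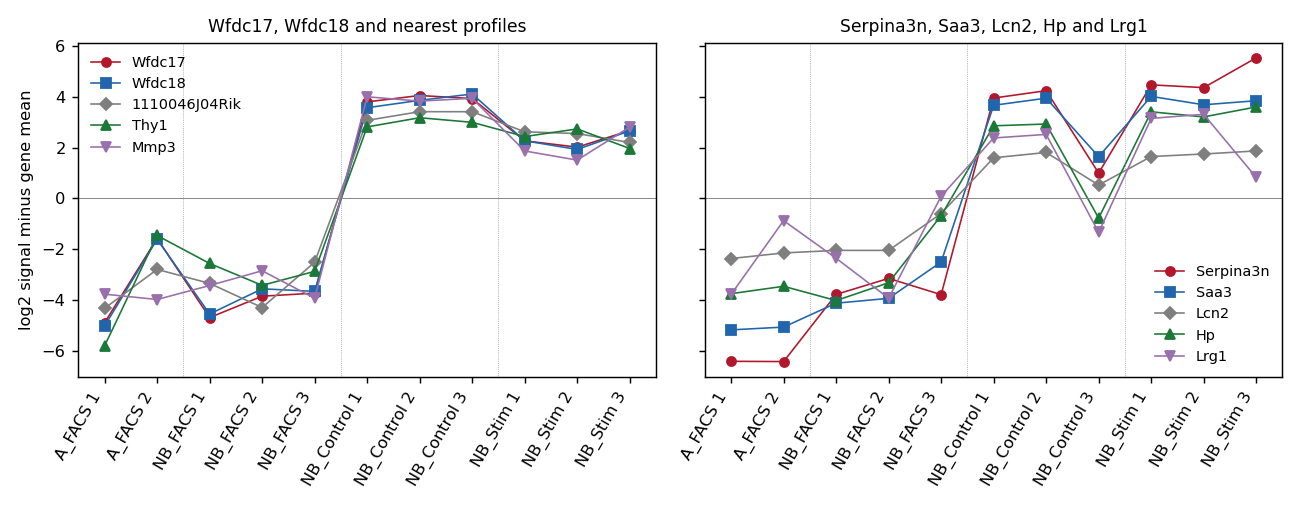
Log2 signal minus the gene's mean over the 11 arrays, by array. On the left Wfdc17 and Wfdc18 lie on one line (root mean square difference 0.15) with 1110046J04Rik, Thy1 and Mmp3 near them, and on the right Serpina3n, Saa3, Lcn2, Hp and Lrg1 dip together in NB_Control replicate 3.

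Adult and newborn sorted cells were compared as A_FACS against NB_FACS, which shares the NB_FACS arrays with the contrasts that chose the members. Sex differs along with age there, and NB_FACS replicate 3 lies on the second slide while both adult arrays lie on the first. Here and below, "with age" names this comparison only and credits no difference to age itself. In the comparison 2 of the 6 members were called, both lower in adults, beside 22.7% of all genes. Both, Slpi and Serpina3n, were well above background on no adult array and passed the filter on dim probes through newborn groups. Slpi was at least 20.3-fold lower in adult than in newborn sorted microglia (log2 difference of the measured means -5.33, SE 0.48, adjusted p = 9.06e-05). This bound sets the newborn mean against the lowest signal of any probe that counted as well above background on each adult array. Where the measured value was larger than that signal, the measured value was used. Slpi was called in all 20 alternatives that could test it, with adjusted p from 0.000101 to 0.00529. These alternatives reuse the same arrays and are no independent support. The measured difference ranged from -6.06 to -2 log2 units, the smallest with normexp. Markers of other cells moved with age too. Of 9 border and monocyte-derived macrophage markers 5 were called lower and 1 higher in adults (median -3.42, sums of 1810 to 4020 against 11100 to 13900). Of 12 fibroblast markers 6 were lower and 2 higher (median -1.83). The fibroblast sum went the other way, at 6080 to 8850 in A_FACS against 2380 to 2540 in NB_FACS. Their part in the age differences of the members was not tested.

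Serpina3n was at least 2.77-fold lower in adults (difference of measured means -2.84, SE 0.81, adjusted p = 0.0314), and 12 of 20 alternatives called it, with adjusted p from 0.000789 to 0.706. Leaving out any one array of the 2 groups ended the call, and with background correction by normexp the difference fell to -0.49. Saa3 differed by -1.59 log2 units with no overlap (SE 0.65, interval -3.05 to -0.14, adjusted p = 0.111), and without NB_Control replicate 3, which is in neither group but adds to the shared spread, the adjusted p was 0.0244. Over all its alternatives the limma adjusted p or that of Tukey's test ran from 0.0244 to 0.62. Lcn2 differed by -0.69 (SE 0.47, interval -1.74 to 0.36, adjusted p = 0.337). Without NB_FACS replicate 3, the array with the high neutrophil sum, the differences were -1.09 for Saa3 and -0.21 for Lcn2.

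For Wfdc17 (0.85, SE 0.74, adjusted p = 0.463) and Wfdc18 (0.61, SE 0.77, adjusted p = 0.629) the direction between ages depended on the adult array. Without A_FACS replicate 2 the differences were -0.80 and -1.10, and without A_FACS replicate 1 they were 2.51 and 2.31, then with adjusted p of 0.00468 and 0.00979. With 1 adult array left, those p-values take its spread from the other groups. The high adult array, replicate 2, also had more Thy1 (6.78, against a value not well above background on the other adult array). Its marker sums were higher for every other cell type examined: epithelial 130000 against 19500, border and monocyte-derived macrophage 4020 against 1810, endothelial 12700 against 6310, astrocyte 1580 against 912, neutrophil 2620 against 1650 and fibroblast 8850 against 6080. The part of these cells in the adult values was not tested.

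The genes with the profiles most like those of the members were found by the smallest root mean square difference of mean-centred log2 values over the 11 arrays, with no test. For Wfdc17 they were 1110046J04Rik (0.80), Thy1 (0.95) and Mmp3 (0.96), and the same 3 were nearest to Wfdc18. Thy1 is among the fibroblast markers used here, and Mmp3 encodes the matrix protease stromelysin-1. Serpina3n was followed by Ankrd1 (1.19), Timp1 (1.26), the tissue inhibitor of metalloproteinases, and Serpinb2 (1.35). For Saa3 the nearest were Ivl (0.68), Ankrd1 (0.91) and Serpinb2 (1.00), and for Lcn2 Adamts14 (0.34), Aldh1a7 (0.44) and G0s2 (0.45). Slpi lay nearest to Gpsm2 (0.54), Dcbld1 (0.67) and Aard (0.71). As fibroblast markers were also higher in culture, in 8 of 12 tested with a median difference of 3.50 log2 units in NB_Control and 10 of 12 in NB_Stim, their part in the members' differences was not tested.

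The counts for further gene lists stand beside 29.7%, 31.1%, 3.41% and 22.7% of all genes called in NB_Control against NB_FACS, NB_Stim against NB_FACS, NB_Stim against NB_Control and A_FACS against NB_FACS, where the medians of all genes were 0.09, 0.11, 0 and -0.01 log2 units. No other WAP gene with a tested signal was called higher in culture. Of 19 further family members with a probe, 16 were tested. In that group 2 were called lower in NB_Control against NB_FACS, with a median of 0.12, and the same counts held for NB_Stim (median 0.10). Wfikkn1, a secreted inhibitor of myostatin, fell from 7.28 to 4.71 (adjusted p = 0.00359) and Wfdc1 from 6.69 to 4.19 (adjusted p = 0.000615) in NB_Control, and to 4.93 (adjusted p = 0.0057) and 4.20 (adjusted p = 0.000658, with 2 of 3 arrays well above background) in NB_Stim. The cytokines changed none of the 16 by the test. With age Wfdc1 rose by 1.52 (adjusted p = 0.0243) and Wfdc11 fell by 1.26 (adjusted p = 0.049).

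In the Serpina3 gene cluster 5 of 9 other genes were tested. Serpina3b rose from 1.72 in NB_FACS, where 1 of 3 arrays was well above background, to 5.15 in NB_Control (adjusted p = 0.0108) and 6.86 in NB_Stim (adjusted p = 0.00114). The NB_Control call ended in 5 alternatives, among them the fit of only these groups with the replicate block (adjusted p = 0.0571). Serpina3h rose in NB_Stim by 0.59 (adjusted p = 0.0176, or 0.0691 with that block), while Serpina3c, Serpina3f and Serpina3m were called in no comparison. The serum amyloid genes Saa1 and Saa4 did not pass the filter on dim probes, with group means of at most 3.57, and no probe was matched to Saa2. Saa3 was therefore the only serum amyloid gene with a tested signal.

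Several serpins outside that cluster changed in culture. Of 24 tested, 11 rose and 1 fell in NB_Control, and 9 rose and 2 fell in NB_Stim, both against NB_FACS, with medians of 0.48 and 0.14. Serpinb2, the plasminogen activator inhibitor of macrophages, was not well above background in NB_FACS and was at least 109-fold higher in NB_Control (adjusted p = 3.35e-07) and at least 129-fold higher in NB_Stim (adjusted p = 3.45e-07). Serpinf2, the plasmin inhibitor, fell from 6.71 in NB_FACS to 3.43 in NB_Control (adjusted p = 8.02e-05), where 1 of 3 arrays was well above background. The cytokines raised Serpina12 by 1.03 (adjusted p = 0.00715) and lowered 4 serpins, among them the complement C1 inhibitor Serping1 (-1.87, adjusted p = 0.0287), Serpinb9b (-1.84, adjusted p = 0.0131) and Serpinb6b (-1.56, adjusted p = 0.00985). With age 1 was higher in adults and 5 were lower, among the latter Serpinb6b (-4.14, adjusted p = 2.61e-05).

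Few lipocalins changed. Of 13 tested besides Lcn2, 1 rose and 1 fell in NB_Control and 3 rose in NB_Stim, against NB_FACS. Orm2 (orosomucoid, a plasma acute-phase lipocalin) was at 1.68 in NB_FACS and 2.61 in NB_Control and rose to 5.12 in NB_Stim, at least 2.94-fold over NB_FACS (adjusted p = 0.0011), with an adjusted p of 0.0385 for the cytokines (0.0615 with the replicate block). Its probe was well above background on 1 of 3 NB_Control arrays. It was also higher in adults, by at least 1.97-fold (adjusted p = 0.00897). Ptgds, the prostaglandin D synthase of meninges and choroid plexus, fell by 2.67 in NB_Control (adjusted p = 0.0431), and 14 alternatives ended that call.

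Other acute-phase genes moved both ways. Of 25 tested, 7 rose and 6 fell in NB_Control and 8 rose and 7 fell in NB_Stim, against NB_FACS, with a median of 0.25 in both. Hp gave 3.77 (not well above background), 4.47 and 7.11 in NB_FACS, 10.64, 10.71 and 7.01 in NB_Control and 11.19, 10.99 and 11.38 in NB_Stim. It rose by 4.34 (adjusted p = 0.00993, or 0.0988 with the replicate block) and 6.08 (adjusted p = 0.00155), although NB_Control replicate 3 fell inside the range of the sorted cells. Ptx3, the long pentraxin that opsonises microbes, rose by 5.40 in NB_Control (adjusted p = 1.64e-05) and by 2.82 in NB_Stim (adjusted p = 0.000848), and was the only gene of the list that the cytokines changed, by -2.58 (adjusted p = 0.0106). Cp (ceruloplasmin) rose by 3.41 in NB_Control (adjusted p = 6.66e-06).

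The genes that fell in culture included Ttr, the thyroid hormone carrier of the choroid plexus (-4.91, adjusted p = 0.00374), Alb (at least 1.94-fold lower, adjusted p = 4.89e-06) and Cfb, complement factor B (-2.84, adjusted p = 0.00199). In NB_Stim the interleukin-1 receptor antagonist Il1rn fell by 4.02 (adjusted p = 0.00135). With age 2 of the 25 rose and 5 fell, among the latter Cfb (-3.60, adjusted p = 0.0017), Il1rn (-3.26, adjusted p = 0.0117) and Ptx3 (at least 4.16-fold lower, adjusted p = 0.00128).

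Genes that carry the acute-phase signal were more often lower than higher in culture. Of 37 tested, 7 rose and 17 fell in NB_Control (median -0.56) and 6 rose and 18 fell in NB_Stim (median -0.65), against NB_FACS. Among the ligands, Tnf fell from 14.42 to 10.37 (adjusted p = 1.59e-07) and Il1a from 11.09 to 7.77 (adjusted p = 2.57e-06) in NB_Control, while Il6 rose by 2.30 (adjusted p = 0.000216). Among the receptors, Osmr, the oncostatin M receptor subunit, rose by 3.46 (adjusted p = 3.96e-05) and Il6st, the shared subunit gp130, fell by 0.56 (adjusted p = 0.0207). Of the nuclear factors, Nfkbiz, an NF-kB cofactor needed for Lcn2 induction, fell by 5.13 (adjusted p = 1.59e-07) and Cebpd rose by 1.85 (adjusted p = 0.000142). In NB_Control, where Lcn2 and Saa3 were higher than in NB_FACS, Tnf, Il1a and Nfkbiz were thus lower and Il6, Osmr and Cebpd higher. The Il6 means of 5.25 in NB_Stim, 5.80 in NB_FACS and 8.54 in A_FACS were not ordered as those of Lcn2 and Saa3. The part of Tnf, Il1a, Nfkbiz, Il6, Osmr or Cebpd in the values of Lcn2 and Saa3 was not tested.

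The cytokines changed 4 of these 37. Il6 gave 7.86, 8.11 and 8.34 in NB_Control and 5.16, 4.77 and 5.82 in NB_Stim, and fell by 2.85 (adjusted p = 0.000601). Its NB_Stim mean of 5.25 differed from the NB_FACS mean of 5.80 by -0.55 (SE 0.28, adjusted p = 0.173). Fkbp5 rose by 1.70 (adjusted p = 0.0123) and Cebpa by 1.11 (adjusted p = 0.0298, or 0.102 with the replicate block), and Tsc22d3 fell by 1.34 (adjusted p = 0.0429). Il6 thus differed between the cultures while Saa3 and Lcn2, known targets of IL-6 family signalling, gave no difference that passed the test, and the difference between these effects was not tested. With age 9 rose and 1 fell, among them Il6 (2.75, adjusted p = 0.000325), Osm (2.16, adjusted p = 0.00163) and Tsc22d3 (2.11, adjusted p = 0.00191), and Jak2 fell by 0.63 (adjusted p = 0.0452).

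Receptors and protease partners of the members were examined as a further list. Of 24 tested, 6 rose and 3 fell both in NB_Control and in NB_Stim against NB_FACS. Fpr2, the formyl peptide receptor that serum amyloid A can engage, rose by 4.73 in NB_Control (adjusted p = 0.000255) and the scavenger receptor Cd36 by 4.36 (adjusted p = 2.57e-06). The relative of Fpr2, Fpr1, rose from 2.82 in NB_FACS, where 1 of 3 arrays was well above background, to 10.86 in NB_Control (adjusted p = 0.000111). Tlr2 fell from 15.08 to 11.96 (adjusted p = 2.13e-05). The cytokines lowered Cd36 (-3.18, adjusted p = 0.000209), Fpr2 (-2.75, adjusted p = 0.0366) and Tlr4 (-1.55, adjusted p = 0.00752), and raised Tlr2 by 1.73 (adjusted p = 0.00624) and Ctss by 0.60 (adjusted p = 0.045). With the replicate block the calls of Fpr2 and Ctss ended (adjusted p = 0.0869 and 0.0649).

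The Lcn2 receptor gene Slc22a17 did not pass in any comparison, with 7.98 in NB_Control and 8.08 in NB_FACS (difference -0.11, adjusted p = 0.732). Elane, the elastase that Slpi blocks, also gave no call, with 8.39 in NB_FACS, 8.96 in NB_Control and 7.90 in A_FACS. With age 1 of the 24 rose, Ctss by 0.81 (adjusted p = 0.00446), and 4 fell, among them Anxa2 (-2.38, adjusted p = 0.000235).

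**Figure D5:**
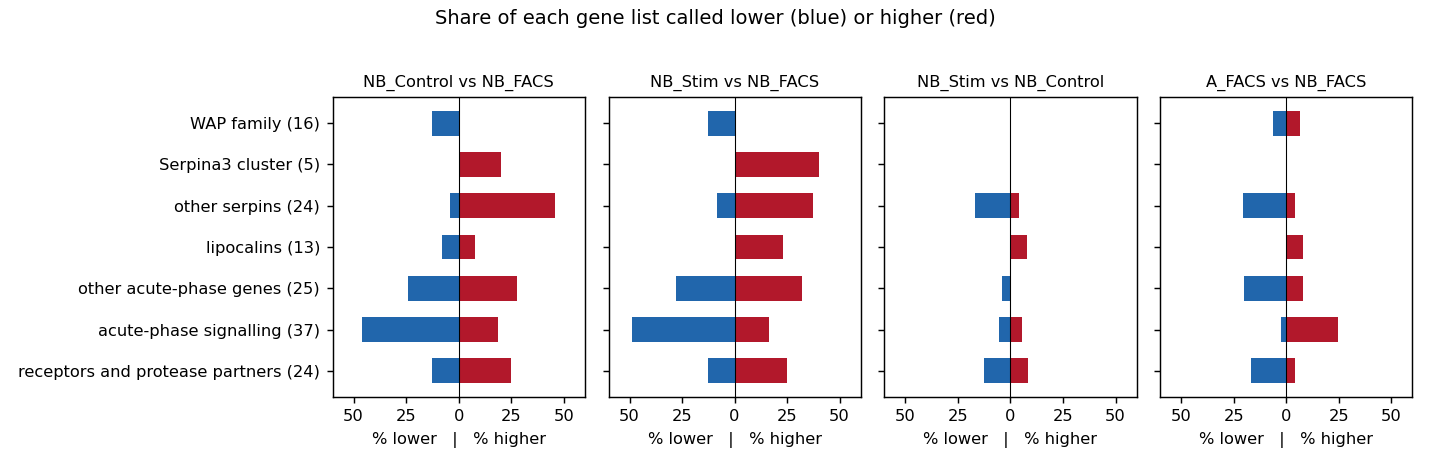
Share of the tested genes of 7 lists, without the members, that were called higher (red, right) or lower (blue, left) in each of 4 comparisons, with the number tested in brackets. Acute-phase signalling genes were more often lower than higher in both cultures (17 against 7 and 18 against 6 of 37), and serpins outside the Serpina3 cluster more often higher (11 against 1 and 9 against 2 of 24).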

How the data were processed

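The authors deposited one Agilent Feature Extraction file for each of the 11 arrays, with linear intensity values per spot and, per the file headers, version 11.5.1.1 of that software and protocol GE1_1105_Oct12, and a series table of background-subtracted intensity that equals the scanner values (0 of 62927 entries differed by more than a relative tolerance of 1e-05). Per the methods, quantile-normalised values were used. Here the deposited processed intensity was put on a log2 scale and quantile-normalised. Control spots and 138 probes with outlier flags were dropped, spots of a probe were averaged, and a probe was kept if well above background on all arrays of at least 1 group. Of 60037 probes 36264 (60.4%) matched 1 symbol through the RefSeq accessions of GRCm38.p6. Probes of a gene were averaged, leaving 19555 genes.

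Groups were compared with limma 3.58.1 in R 4.3.3 (lmFit and eBayes over all 11 arrays, two-sided, Benjamini-Hochberg over all genes, called below 0.05), which was tested on simulated data. The number of arrays limits the precision. Alternatives were 75th percentile scaling, normexp background correction (offset 50), other filters and probe rules, slide and replicate blocks, smaller fits, Tukey's test after one-way analysis of variance, which the methods name, and leaving out each array. Same-numbered newborn samples deviated together (correlations of 0.11 to 0.49 between NB_FACS, NB_Control and NB_Stim), replicate 3 being the second slide in all. The numbers were therefore taken as pairs there, by a rule of every such correlation over 0.1. The main fit, which gave the calls, held no block for these pairs. A paired fit of only the compared groups, with the replicate block, was added after the values had been seen. The highest correlation with another number was up to 0.36 for replicates 1 and 2 and passed the same-number value in 3 of their 6 pairs, while replicate 3 had none above -0.33. The numbers were not paired for A_FACS (0.17 and -0.07). The members and the gene lists were chosen with earlier results of these data known. Named were all members, the 3 largest called rises and falls of each list per comparison and a few more list genes picked by their role or after their values were seen, the members' paralogues, and the 3 nearest profiles of each member. Sequences are from the scanner files and RefSeq. Values of 1 other gene that this rule would name are not reported here, and protein sequences and the RNA level of Serpina3g were not analysed here.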

Additional observations from a re-analysis of the deposited data

How the results depend on the processing

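With 2 or 3 arrays a group, dim probes and single arrays set most limits. For A_FACS against NB_FACS, 2 members were called, against 1 under 75th percentile scaling, normexp or either form of Tukey's test and 0 with probes well above background on all arrays, where Slpi and Serpina3n could not be tested. Leaving out single arrays gave 1 to 3. For NB_Stim against NB_Control 0 members were called, against 1 with normexp (Wfdc18, adjusted p = 0.0472), 2 with only the compared groups, with or without the replicate block, and 2 without both adult arrays. Leaving out single arrays gave 0 to 2, and 0 with the replicate block or slide block over all groups. The genes called there (666) became 1009 with normexp, 1476 with the slide block, 1193 with the replicate block, 183 and 1590 by Tukey's test with and without Benjamini-Hochberg adjustment and 118 with cultured replicates 1 and 2 averaged. Leaving out single arrays gave 304 to 703, lowest without replicate 1 or 2 of NB_Control (334, 337) or NB_Stim (304, 318). In A_FACS against NB_FACS the 4434 calls became 2923 with only the compared groups, 2014 by adjusted Tukey's test and 2456 (A_FACS replicate 1) to 5124 without single arrays. Adjusted Tukey's test gave 3547 in NB_Control and 3620 in NB_Stim against NB_FACS (5811 and 6082 by limma). The paired fit changed no other member's call, and among the named list genes it ended 9 calls, those of Cebpa, Ctss, Fpr2 and Orm2 with cytokines, of Hp, Serpina3b and C8g in NB_Control and of Serpina3h and Lrg1 in NB_Stim. Directions turned for Slpi in NB_Stim against NB_Control with normexp (-0.01), for Wfdc17 (-0.80) and Wfdc18 (-1.10) with age without A_FACS replicate 2 (2.51 and 2.31 without A_FACS replicate 1), and for Ager in both cultures against NB_FACS with the brightest probe (0.35 and 0.31, main values -0.81 and -0.73). With normexp the culture differences shrank to 4.87 and 6.57 for Serpina3n, 6.55 and 4.97 for Wfdc18 and 7.51 and 5.94 for Wfdc17. The causes were not tested. Among list genes, calls ended most often for Ctss (19 alternatives), Fpr2 (15) and Orm2 (15) with cytokines, Wfdc11 (16) with age, and Ptgds (14, NB_Control) and Lcn5 (14, NB_Stim) in culture.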
